A study of Mus musculus with 6 samples.

Results

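The transcripts described here are the RefSeq noncoding RNAs of a mouse expression array: every non-control probe whose target carries an accession that starts with NR_, the prefix RefSeq gives to noncoding transcripts. The array design held 886 such probes, 884 of which kept at least 1 usable spot on every array, out of 55646 probes in all. They stood for 756 accessions. The reference gene table named 811 of the probes (692 genes), and 73 probes (56 accessions) are given by accession. By the reference table's classes, 559 probes belonged to long noncoding RNAs, 222 to transcribed pseudogenes, 6 to antisense RNAs, 4 to small nuclear RNAs, 2 to small nucleolar RNAs, 2 to ribosomal RNAs and 1 each to telomerase RNA and RNase MRP RNA. A further 14 probes targeted NR_ records of genes that the table now lists as protein-coding.

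All 6 samples were epiblast stem cells (EpiSCs) of the 129/Sv mouse strain, pluripotent cells that correspond to the post-implantation epiblast. The 2 EpiSC arrays held cells kept under epiblast maintenance conditions, the 2 NPC1 arrays cells after 1 day in a neural plate developmental condition, and the 2 NPC2 arrays cells after 2 days in it. A and B are duplicates grown from the same seed stock, so every test weighs a difference against the spread of these 6 samples, part of which may be technical. The labels name no genetic change or added factor for any group.

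Long noncoding RNAs act in several known ways. Some coat or organise chromatin and nuclear bodies, some are hosts from which microRNAs (miRNAs) or small nucleolar RNAs (snoRNAs) are cut, and for others the act of transcription affects a neighbouring gene. In early embryonic cells the best known are the transcript of the miR-290 to miR-295 cluster in pluripotent cells, Xist on the inactive X chromosome, and the transcripts of imprinted regions, which are made from 1 parental copy. The array measured these as polyadenylated RNA, since the labelling kit primes from poly(A) tails, so a host's signal is not a measure of the mature miRNA or snoRNA cut from it.

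The 9 epiblast markers were well above background on all 6 arrays and went both ways. In NPC2 against EpiSC, Pou5f1 was lower by 2.66, Utf1 by 4.40, Cdh1 by 2.43, Fgf5 by 4.26 and Tdgf1 by 7.07 on the log2 scale, while Sox2 was higher by 1.28, Nanog by 0.82, Otx2 by 0.77 and Lin28a by 0.63. Of the 12 neural plate markers, 7 were well above background on both EpiSC arrays, 9 on both NPC1 arrays and 12 on both NPC2 arrays; Sox1 was higher in NPC2 by 5.72 and Hes5 by 3.53, and Zic5 was lower by 1.62. Markers of other lineages also moved: of 7 primitive streak and mesoderm markers, 7 were above background in EpiSC, 4 in NPC1 and 4 in NPC2, and their summed level ran from 9.30 to 9.83 in EpiSC, 1.63 to 1.69 in NPC1 and 0.82 to 0.894 in NPC2 (in units of each array's 75th percentile). For 6 endoderm markers the same sums were 6.11 to 6.38, then 0.462 to 0.57, then 2.57 to 2.69. In NPC2 against EpiSC, Cxcr4 was higher by 4.08. Foxa2, Gata6, Sox17 and Afp changed by -1.88, -1.83, -2.88 and -3.42, and Gata4 was not tested. For 8 fibroblast markers the sums were 8.18 to 8.61, then 10.7 to 11.1, then 13.0 to 13.7. Postn, Col1a2 and Thy1 were higher in NPC2 than in EpiSC by 2.53, 1.41 and 0.53. Twist2 changed by -1.49, and Col1a1, Col3a1 and Dcn were not called. The 7 surface ectoderm and neural crest markers summed to 170.0 to 179.0, then 135.0 to 144.0, then 51.1 to 55.3, with Krt8 and Krt18 lower on day 2 (-1.93 and -1.71) but Tfap2a and Sox10 higher (1.84 and 0.88). The summed level of the 6 neuron markers was highest in NPC1, at 22.7 to 22.9, then 40.5 to 41.3, then 28.9 to 29.3. Tubb3, Gap43, Stmn2 and Elavl3 followed the sum. Against EpiSC, Dcx was lower by 1.03 on both days, and Map2 was higher by 0.73 in NPC1 and by 0.88 in NPC2. Dppa3 and Lum were not above background on any array. The part of these cells in the results was not tested. In bulk RNA, fewer cells of a type and less RNA per cell cannot be told apart.

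The deepest fall of a noncoding transcript above background on all arrays was that of a miRNA host, D7Ertd143e; the miRNAs that the reference places in or beside such hosts were not measured themselves. The gene span of D7Ertd143e holds 6 hairpins of the miR-290 to miR-295 cluster in the reference. Kis2 has 6 hairpins of the miR-106a to miR-363 cluster within 5 kb of its span, and Mir17hg has the 6 hairpins of the miR-17 to miR-92 cluster in or within 5 kb of its span. The mature sequences below come from RefSeq (GRCm38.p6), are written 5′ to 3′ and have the seed, bases 2 to 8, in capitals. They are shown because 3 hosts that moved in different directions carry seeds with the same AAGUGC core. In the first 3, from D7Ertd143e, the core starts at base 2, and in the next 4, from Mir17hg and Kis2, it starts one base later.
mmu-miR-294-3p (chr7:3220691-3220712, plus strand): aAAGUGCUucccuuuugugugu
mmu-miR-295-3p (chr7:3220815-3220837, plus strand): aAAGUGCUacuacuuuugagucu
mmu-miR-291b-3p (chr7:3219529-3219550, plus strand): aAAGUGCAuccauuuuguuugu
mmu-miR-17-5p (chr14:115043684-115043706, plus strand): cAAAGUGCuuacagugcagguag
mmu-miR-20a-5p (chr14:115044183-115044205, plus strand): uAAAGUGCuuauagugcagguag
mmu-miR-106a-5p (chrX:52742541-52742563, minus strand): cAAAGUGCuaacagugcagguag
mmu-miR-20b-5p (chrX:52742159-52742181, minus strand): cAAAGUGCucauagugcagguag
In all, 23 noncoding genes had a hairpin in or within 5 kb of their span. Mir9-3hg and Mir22hg, of the list of miRNA hosts, each hold 1 hairpin, with other seeds.
mmu-miR-9-5p, in Mir9-3hg (chr7:79505279-79505301, plus strand): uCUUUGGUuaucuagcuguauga
mmu-miR-22-3p, in Mir22hg (chr11:75463772-75463793, plus strand): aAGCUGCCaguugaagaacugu

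D7Ertd143e read 25309 and 26188 (processed signal, the background-subtracted intensity of the scanner) on the EpiSC arrays, 11194 and 11579 in NPC1 and 1375 and 1385 in NPC2. No 2 groups overlapped; the loss in signal was greater on day 1 and the fold change greater from day 1 to day 2. Relative to each array's 75th percentile it was 2.25-fold lower in NPC1 than in EpiSC and 19.5-fold lower in NPC2 (log2 change -4.29, SE 0.05, n = 2 arrays a group, limma adjusted p = 2.37e-05). A second probe on the transcript, from 1110 and 1078 in EpiSC to 41.2 and 41.4 in NPC2, gave a change of -4.79. The miR-290 to miR-295 cluster is known as the leading miRNA cluster of mouse pluripotent cells.

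The hosts of the AAAGUGC-seed clusters were higher on day 2. Mir17hg, host of the growth-promoting miR-17 to miR-92 cluster, read 3945 and 3709 in EpiSC, 3160 and 3984 in NPC1 and 7023 and 7095 in NPC2. EpiSC and NPC1 overlapped, and NPC2 lay above both, 1.77-fold above EpiSC (log2 change 0.82, adjusted p = 0.00243). Kis2 read 18.6 and 17.9, then 35.2 and 37.1, then 78.4 and 72.9. It stood 2.00-fold higher on day 1 (log2 change 1.00, adjusted p = 0.00115) and 3.97-fold higher on day 2 (log2 change 1.99, adjusted p = 6.01e-05), with no overlap.

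The list of miRNA hosts had 7 genes. The reference used places no hairpin in or within 5 kb of Mirt1, Mir124-2hg or Mir99ahg. Mir124-2hg and Mir99ahg are thus hosts by name only here, and Mirt1 is not named as one. Of the 6 genes other than Mirt1, 4 were tested. Mir17hg, Mir124-2hg and Mir9-3hg rose and Mir22hg fell in NPC2 against EpiSC, and Mir99ahg and Mir100hg were not above background on any array. Mir124-2hg, named as host of the neuronal miR-124, read 2.47 and 2.65 in EpiSC, 2.54 and 4.82 in NPC1 and 36.8 and 37.8 in NPC2. It was well above background on the NPC2 arrays alone, so it was tested only because it was high there, and it was at least 3.86-fold higher than in EpiSC (adjusted p = 0.000549); such a bound sets the bright group against the lowest level that counts as above background on each dim array. Mir9-3hg, host of miR-9, a miRNA of neural progenitors, went from 51.5 and 50.4 through 67.9 and 66.8 to 103.0 and 104.0, a 1.94-fold rise by day 2 (adjusted p = 0.000382). Mir22hg read 139.0 and 146.0, then 163.0 and 121.0, then 40.1 and 32.6, so that the 4 EpiSC and NPC1 arrays were interleaved and both NPC2 arrays were 4.11-fold lower (adjusted p = 0.00128). Mirt1 fell from 28.4 and 26.5 to a level not well above background, at least 3.19-fold (adjusted p = 0.000974). With normexp correction the day-2 changes were 0.77 for Kis2, 0.62 for Mir124-2hg, -1.23 for Mir22hg and -0.46 for Mirt1, each still called.

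**Figure D1:**
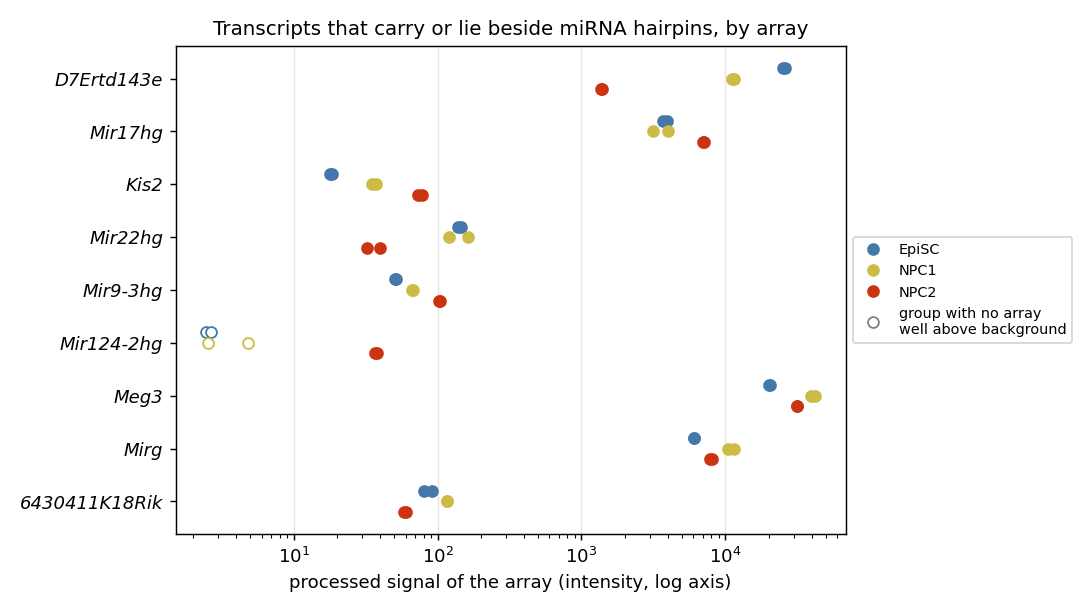
Processed signal (intensity, log axis) on each of the 6 arrays for 9 transcripts that carry miRNA hairpins, lie within 5 kb of them or, for Mir124-2hg, are named as a miRNA host. There are 2 points a group, open where neither array of the group was well above background. D7Ertd143e spans 26188 in EpiSC to 1375 in NPC2, Mir124-2hg is filled in NPC2 only, and Meg3, Mirg and 6430411K18Rik are highest in NPC1.

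Crnde, Pantr1 and Six3os1, of the neural list, were higher in NPC2 than in EpiSC, Crnde by 21.9-fold and the other two by at least 6.90-fold and 6.43-fold. Of the list's 9 genes with a probe, 3 could be tested, and these 3 rose in NPC2 against EpiSC. Pantr1 and Six3os1 were tested because they were above background in NPC2, so they could differ in 1 direction only. Of the other 6, Dlx6os1, Dlx1as, Pax6os1 and Vax2os were not above background on any array, and Sox1ot and Emx2os did not reach it on both arrays of a group.

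Crnde, a long noncoding RNA beside the homeobox gene Irx5, read 31.9 and 38.2 in EpiSC, 218.0 and 246.0 in NPC1 and 762.0 and 842.0 in NPC2. The groups were far apart at each step, 6.68-fold on day 1 and 21.9-fold on day 2 (log2 change 4.46, SE 0.11, adjusted p = 4.6e-05). Irx5 itself rose by 4.07 on day 1 and 6.09 on day 2 on the log2 scale. Pantr1, which lies near the neural transcription factor gene Pou3f3, read 2.10 and 2.25 in EpiSC, 2.15 and 1.91 in NPC1 and 67.8 and 65.6 in NPC2. It appeared on day 2 alone, at least 6.90-fold above EpiSC (adjusted p = 3.5e-05). Six3os1, transcribed opposite the forebrain and eye homeobox gene Six3, had the same form, with 2.68 and 2.92, then 2.28 and 3.51, then 65.9 and 58.7, and was at least 6.43-fold higher in NPC2 than in EpiSC (adjusted p = 0.000136). Its second probe was not above background on any array. Six3 was likewise above background in NPC2 alone, at least 3.25-fold higher, so that the shared direction of the pair was fixed by the filter. With normexp background correction (offset 50), which raises dim signals, the changes were smaller and still called: 3.10 for Crnde, 1.07 for Pantr1 and 0.96 for Six3os1.

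Promoter windows from RefSeq (GRCm38.p6), 250 bases before to 50 after the annotated start on the gene's strand, are given for Crnde, for the neighbours Six3os1 and Six3, and for D7Ertd143e as the transcript with the deepest fall. Capitals mark the 6 motifs searched on both strands: the octamer ATGCAAAT, the SOX motif CTTTGT, the E-box CACGTG, the CCAAT box, the TATA box TATAAA and the SP motif GGGCGG; no letter belonged to more than one of them in these 4 windows.
Crnde (chr8:92356071-92356370, minus strand): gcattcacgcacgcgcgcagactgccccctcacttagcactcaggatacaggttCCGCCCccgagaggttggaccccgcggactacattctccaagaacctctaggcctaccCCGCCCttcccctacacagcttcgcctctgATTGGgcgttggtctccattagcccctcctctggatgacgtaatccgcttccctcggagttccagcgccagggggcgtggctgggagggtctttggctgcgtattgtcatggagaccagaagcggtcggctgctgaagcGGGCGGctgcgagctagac
Six3os1 (chr17:85618347-85618646, minus strand): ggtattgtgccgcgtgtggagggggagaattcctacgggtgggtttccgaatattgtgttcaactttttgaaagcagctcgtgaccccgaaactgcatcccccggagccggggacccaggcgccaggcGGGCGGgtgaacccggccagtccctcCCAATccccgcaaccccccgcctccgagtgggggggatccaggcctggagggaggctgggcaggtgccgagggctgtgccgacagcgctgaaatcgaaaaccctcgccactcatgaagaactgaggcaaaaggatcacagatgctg
Six3 (chr17:85620584-85620883, plus strand): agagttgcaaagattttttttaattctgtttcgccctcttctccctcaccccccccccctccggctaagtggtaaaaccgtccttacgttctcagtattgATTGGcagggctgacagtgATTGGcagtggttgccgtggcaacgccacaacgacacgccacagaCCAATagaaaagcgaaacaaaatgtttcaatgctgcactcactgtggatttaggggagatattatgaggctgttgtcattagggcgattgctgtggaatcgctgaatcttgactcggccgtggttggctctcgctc
D7Ertd143e (chr7:3218534-3218833, plus strand): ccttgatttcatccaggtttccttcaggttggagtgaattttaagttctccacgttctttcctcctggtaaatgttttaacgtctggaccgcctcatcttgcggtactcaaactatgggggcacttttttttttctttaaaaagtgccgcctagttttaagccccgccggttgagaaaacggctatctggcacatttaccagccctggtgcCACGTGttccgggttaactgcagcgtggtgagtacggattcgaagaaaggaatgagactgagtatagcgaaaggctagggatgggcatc
Crnde held 3 SP motifs and 1 CCAAT, Six3os1 1 of each, Six3 3 CCAAT boxes, and D7Ertd143e 1 E-box, with no octamer or SOX motif in the 4 windows. The D7Ertd143e window holds the miR-290a hairpin, before the annotated start. It thus lies within the miRNA cluster and need not be the promoter of the cluster's transcript, whose motifs were not searched elsewhere. The letters of each motif were in 35.7% (SP), 37.4% (CCAAT), 7.15% (E-box), 1.74% (octamer), 18.7% (SOX) and 13.6% (TATAAA) of all 32851 windows of the table. Of the noncoding genes, 417 of 692 had a window. In the 77 windows of members called higher in NPC2 against EpiSC, SP was in 54.5%, TATAAA in 22.1% and the E-box in 11.7%. In the 49 windows of members called lower these were 38.8%, 8.16% and 16.3%. In the 462 windows of all noncoding members they were 38.3%, 12.6% and 7.36%. The median count of CpG pairs was 19 in the higher set and 13 in the lower set, beside 7 in all windows of the table. The octamer was in 1 window of the higher set and 1 of the lower set.

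Both arrays of 1 or more groups put 487 of the noncoding probes well above background, and these were tested together with the rest of the array, 33536 probes in total. On day 1, 92 rose and 55 fell against EpiSC, 18.9% and 11.3% of the noncoding probes tested. Of all probes tested 33.3% were called, 16% higher and 17.3% lower. On day 2, 127 rose and 109 fell (26.1% and 22.4%), beside 54.5% of all probes called, 23.9% higher and 30.7% lower. A change of at least 2-fold was called for 51 noncoding probes upward and 33 downward, 10.5% and 6.78%, beside 8.77% and 8.16% of all probes. Between day 1 and day 2, 64 rose and 73 fell (13.1% and 15.0%), beside 31.8% of all, 13.7% higher and 18.2% lower. In NPC1 against the mean of the other groups, 50 were higher and 24 lower (10.3% and 4.93%), beside 15.4% of all, 9.15% higher and 6.24% lower. The split depended on the scaling: on day 2 the medians of all probes were -0.054 on the log2 scale here, -0.137 with each array's median as its scale and 0.170 in the authors' value table. With median scaling 118 noncoding probes rose and 128 fell on day 2, and by the authors' values 209 rose and 66 fell; on day 1 the 2 splits were 73 to 76 and 143 to 32. Among the 409 noncoding probes above background on all 6 arrays, 111 rose and 99 fell on day 2. Without EpiSC array B or NPC1 array A the day-1 count of 147 became 81 and 95. Without NPC2 array A or B the count of 137 between the days became 91 and 85.

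By class, of the 559 long noncoding RNA probes 288 were tested, and 91 of these rose and 57 fell on day 2, with a median change of 0.16. Of the 222 transcribed pseudogene probes 128 were tested, and 19 rose and 31 fell, with a median of -0.03. Of the 48 tested probes known by accession alone, 12 rose and 16 fell. Over all probes tested, 23.9% rose and 30.7% fell on day 2, with a median change of -0.054. Fewer noncoding than protein-coding probes were above background: between 50.1% and 55.7% of the 884 on each array, against 70.6% to 72.5% of the 26414 probes for NM_ transcripts. The noncoding share was lower on all 6 arrays, and 337 noncoding probes were above background on none.

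**Figure D2:**
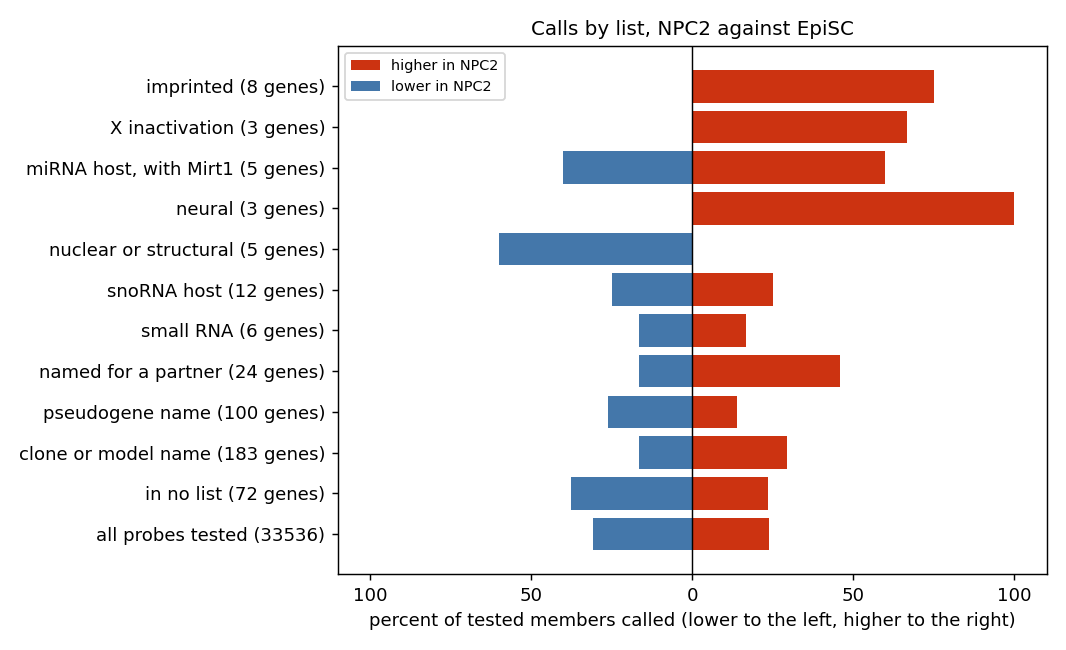
Percent of the tested genes of each list called higher (right) or lower (left) in NPC2 against EpiSC, with the number tested in brackets. The bottom bar gives all 33536 probes tested (23.9% higher, 30.7% lower). The bar marked pseudogene name also counts genes that are pseudogenes by the reference's class alone. The 3 tested neural genes rose, 2 of them tested only through their level in NPC2, 6 of 8 imprinted genes rose, and the nuclear and structural RNAs had calls on the lower side only; lists of 3 to 8 genes move by large steps.

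The rises on day 2 outside the neural list were led by Gm2694, Macroh2a3 and 2610028E06Rik. Gm2694, next to the synapse organiser gene Cbln1, read 76.6 and 84.6 in EpiSC, 91.0 and 87.3 in NPC1 and 1017 and 1012 in NPC2. It was level until day 1 and 12.1-fold above EpiSC on day 2 (adjusted p = 4e-05), and Cbln1, not above background in EpiSC, was at least 82.6-fold higher. Macroh2a3, a macroH2A-related gene given here as a noncoding record, climbed from 1167 and 1232 through 4010 and 3933 to 8983 and 9015, with no overlap, 3.33-fold on day 1 and 7.18-fold on day 2 (adjusted p = 4.17e-05). 2610028E06Rik read 1.89 and 4.39, then 6.95 and 10, then 157.0 and 222.0, and was at least 19.3-fold higher in NPC2 than in EpiSC (adjusted p = 0.000611). It passed the filter through NPC2 alone, so it could be called in that direction only. A730056A06Rik overlaps the axon guidance gene Rgma; it was above background in NPC2 only, at 24.0 and 26.1, at least 2.58-fold over EpiSC, and as it passed the filter through NPC2 it could be called in that direction only; Rgma, above background on all arrays, rose by 2.13. 8430431K14Rik, in the kinase gene Prkg1, read 16.7 and 13.9 in NPC2 and under 4.1 elsewhere, at least 1.58-fold higher, and also passed the filter through NPC2 alone. Gm10421 rose 3.87-fold, from 45.2 and 43.0 to 193.0 and 165.0, and 2610035D17Rik 2.61-fold, from 34.6 and 36.1 to 97.5 and 95.6. NR_001592 read 2027 and 2103, then 5729 and 5832, then 8118 and 6641, up 2.82-fold on day 1 (adjusted p = 0.00158) and 3.40-fold on day 2 (adjusted p = 0.000311). With normexp correction the day-2 changes were 2.93 for Gm2694 and 2.06 for 2610028E06Rik, and between 0.39 and 1.18 for A730056A06Rik, 8430431K14Rik, Gm10421 and 2610035D17Rik, each still called.

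**Figure D3:**
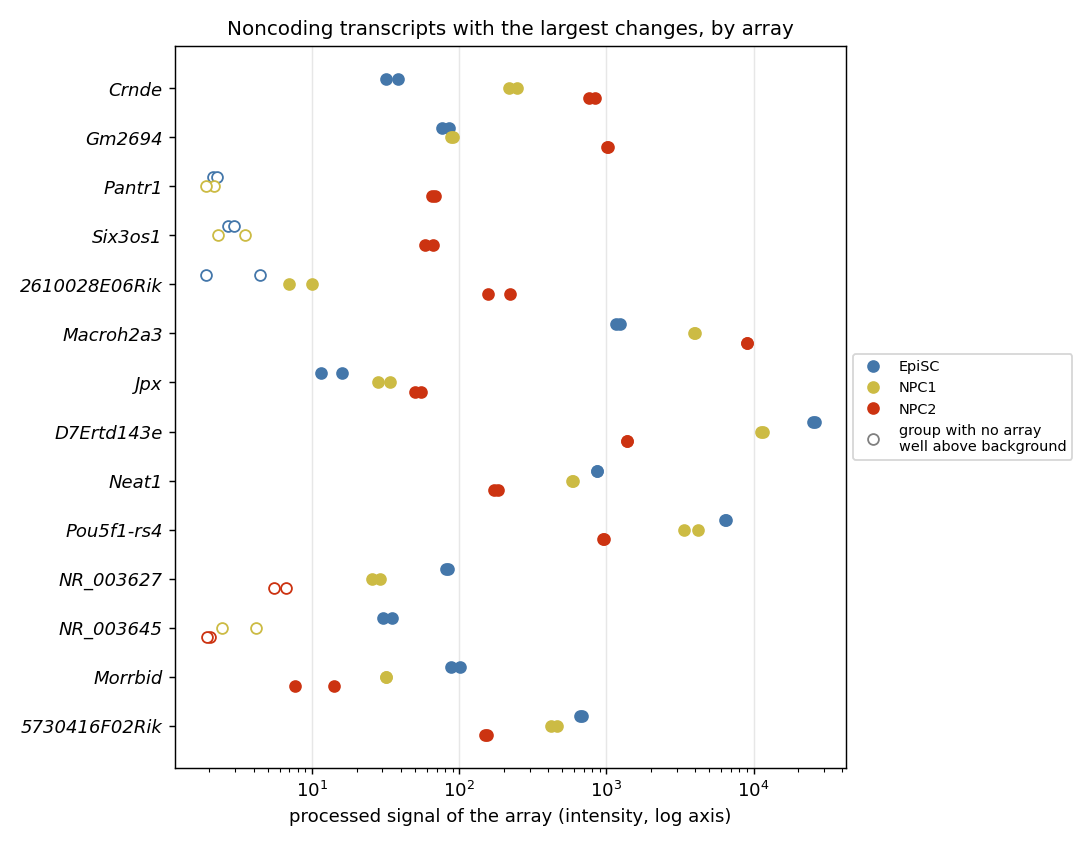
Processed signal (intensity, log axis) on each array for 14 noncoding transcripts with large changes, 2 points a group, open where neither array of the group was well above background. Crnde, Macroh2a3 and Jpx step up on both days, and Gm2694, Pantr1 and Six3os1 rise in NPC2 alone. The lower 7 fall and are below their EpiSC level already in NPC1, where NR_003645 is open.

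Gm11110, Gm3414 and 4 dim transcripts rose by day 1 and were also above their EpiSC level on day 2. Gm11110 went from 93.7 and 119.0 to 230.0 and 228.0 and then 308.0 and 316.0 (day 1: 2.18-fold, adjusted p = 0.00476) and Gm3414 from 23.1 and 15.8 to 39.6 and 42.3 and then 66.2 and 54.9 (day 1: 2.15-fold, adjusted p = 0.0173; the change of 1.11 was 1.11 and 1.1 but not called without NPC1 array A or B). A930003A15Rik was not above background in EpiSC (2.05 and 1.92) and read 20.6 and 13.6 in NPC1, at least 1.82-fold higher (adjusted p = 0.00194), and 16.5 and 14.6 in NPC2. 4933421O10Rik rose from below background to 23.3 and 25.5, at least 2.65-fold (adjusted p = 0.000751), Phxr4 to 19.2 and 19, at least 1.95-fold (adjusted p = 0.00727), and NR_003640 to 20.5 and 16.3, at least 1.97-fold (adjusted p = 0.0138; a change of 1.1 that became 0.92 and was not called without EpiSC array A). The last 3 read higher still in NPC2, at 41.1 and 39.6, at 32.3 and 35.5, and at 32.7 and 32.7. As these 4 dim transcripts passed the filter only through the neural plate condition, they could be called higher only against EpiSC. With normexp correction the day-1 changes were 0.30 for Gm3414, 0.41 for A930003A15Rik and 0.20 for 4933421O10Rik, still called, and 0.20 for Phxr4 and 0.15 for NR_003640, which were not.

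The falls included Neat1, Morrbid and several transcripts known by an accession or a clone name. Neat1, the scaffold of paraspeckles, read 858.0 and 857.0 in EpiSC, 583.0 and 593.0 in NPC1 and 182.0 and 172.0 in NPC2. It was lower at each step and 5.06-fold lower by day 2 (log2 change -2.34, SE 0.06, adjusted p = 4.49e-05). Malat1, a nuclear speckle RNA from a gene nearby, did not follow it: it read 1331 and 1314, then 2112 and 1788, then 990.0 and 1037, highest in NPC1. Malat1 stood 0.79 above the mean of the other groups on day 1 (adjusted p = 0.0139) and 1.01 lower on day 2 than on day 1 (adjusted p = 0.00482). Its day-2 change against EpiSC, -0.45 (adjusted p = 0.0313), was not called in the value table (-0.23), with quantile normalization (-0.34), without EpiSC array A or B (-0.44 and -0.46) or without NPC2 array A or B (-0.41 and -0.49). Its day-1 change of 0.56 was not called without EpiSC array A or B (0.57 and 0.55).

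Morrbid, a long noncoding RNA near the pro-apoptotic gene Bcl2l11, fell from 101.0 and 87.7 through 31.9 and 31.6 to 14 and 7.61, a 9.50-fold fall by day 2 (adjusted p = 0.00104), with 1 of the 2 NPC2 arrays well above background. NR_003627 fell from 83.5 and 81.1 through 25.5 and 29.0 to 6.65 and 5.52, at least 9.58-fold (adjusted p = 4.91e-05). NR_003645 was above background in EpiSC alone, at 30.4 and 35.0, and at least 3.77-fold lower on day 1 (adjusted p = 0.00256) and 3.80-fold lower on day 2 (adjusted p = 0.000483). As it passed the filter through EpiSC alone, it could be called in that direction only. 1810019D21Rik, which overlaps the epithelial splicing regulator gene Esrp2, went from 217.0 and 239.0 to 48.2 and 48.8, a change of -2.29, while Esrp2 fell by 3.36. 2010204K13Rik went from 2255 and 2271 through 1109 and 1247 to 647.0 and 634.0, 3.69-fold (adjusted p = 5.68e-05). 4933412E12Rik fell from 444.0 and 440.0 to 97.0 and 116.0, 4.35-fold (adjusted p = 0.0002), most of it on day 1, when it read 155.0 and 154.0. 1700029M20Rik and Dubr held their level on day 1 (27.9 and 25.0 against 24.9 and 25.8 in EpiSC; 129.0 and 137.0 against 125.0 and 128.0) and fell on day 2, to 7.88 and 7.63 (at least 2.95-fold, adjusted p = 0.000241) and to 54.2 and 45.0 (2.68-fold, adjusted p = 0.000445). Flicr, a transcript at the Foxp3 gene, fell from 25.1 and 23.5 to 12.7 and 14.5 on day 1 (1.78-fold, adjusted p = 0.00323). With normexp correction the day-2 changes were -1.08 for Morrbid, -1.15 for NR_003627, -0.65 for NR_003645, -1.46 for 1810019D21Rik and -0.40 for 1700029M20Rik, and the day-1 change of Flicr was -0.26, each still called.

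Most tested transcripts of the imprinted list were higher in the neural plate condition, with Meg3 and Mirg of the Dlk1-Dio3 region highest on day 1. The list had 9 genes with a probe, 8 of them tested. Of these, 5 rose on day 1 and 6 on day 2, and the others were not called. Among all probes tested, 16% were called higher on day 1 and 23.9% on day 2. The median day-2 change of the list was 0.60, beside -0.054 over all probes. Meg3, the maternally expressed RNA of the Dlk1-Dio3 region, read 20596 and 20036 in EpiSC, 39697 and 42114 in NPC1 and 31272 and 31742 in NPC2. NPC1 was highest and EpiSC lowest, with no overlap, 2.02-fold up on day 1 (adjusted p = 0.00082) and 1.36-fold down from day 1 to day 2 (adjusted p = 0.00441). Its other 2 probes rose by 0.87 and 0.91 on day 1. Mirg, a miRNA-rich transcript of the same region, had the same order, with 6059 and 6022, then 10501 and 11516, then 7884 and 8090, 1.83-fold up on day 1 (adjusted p = 0.00119). In NPC1 against the mean of the other groups the log2 change was 0.73 for Meg3 and 0.70 for Mirg (adjusted p = 0.00267 and 0.00309). 6430411K18Rik, an unlisted transcript that overlaps the imprinted gene Rtl1 of that region, read 80.3 and 92.3, then 117.0 and 116.0, then 60.0 and 58.4. It was 0.75 higher in NPC1 than in the mean of the others (adjusted p = 0.00746), a value of 0.69 without a call when NPC1 array A was left out. Unlike the listed genes, it was called lower in NPC2 than in EpiSC (log2 change -0.6, limma adjusted p = 0.00437).

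Peg13, Airn, Gnasas1 and Igf2os, from other imprinted regions, had their highest values on day 2. Peg13, a paternally expressed RNA within the Trappc9 gene, read 306.0 and 335.0, then 459.0 and 500.0, then 949.0 and 935.0, and was 2.82-fold up by day 2 (adjusted p = 0.000135). Airn, the antisense RNA that silences Igf2r, read 204.0 and 189.0, then 234.0 and 212.0, then 365.0 and 344.0, 1.73-fold up (adjusted p = 0.00292), and its second probe rose by 1.11. Gnasas1, antisense at Gnas, went from 66.3 and 61.5 to 94.9 and 95.6 and then 100.0 and 108.0 (1.55-fold, adjusted p = 0.00245). Igf2os, opposite the growth factor gene Igf2, differed between the EpiSC arrays, at 71.7 and 196.0, and read 573.0 and 597.0 in NPC2; its change of 2.24 (adjusted p = 0.0149) was 2.28 and 2.20, and not called, without NPC2 array A or B, and 1.52 and 2.96 without EpiSC array A or B. Igf2 itself rose by 2.52. The 2 probes of Kcnq1ot1, the silencing RNA of the Kcnq1 region, differed in call on day 2: 0.26 for the brighter (adjusted p = 0.2) and 0.56 for the other (adjusted p = 0.0103). On day 1 Airn, Igf2os and Kcnq1ot1 were not called (adjusted p = 0.221, 0.0608 and 0.433). Peg3os, outside the list, fell from 16.8 and 16 to below background on day 2 (at least 1.91-fold, adjusted p = 0.0493), with Peg3 at -0.72; that call was lost without any 1 of the EpiSC or NPC2 arrays (-1.36, -1.43, -1.55 and -1.25).

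Of the 3 tested transcripts of the X-inactivation centre, Xist and Jpx rose on day 2 and Ftx was not called. Xist, the RNA that coats the inactive X chromosome, was present in all groups, at 845.0 and 867.0, then 1153 and 1090, then 1428 and 1473, 1.62-fold higher by day 2 (adjusted p = 0.0018), and its second probe gave 1.58-fold. Jpx, an activator of Xist, read 15.9 and 11.4, then 28.2 and 33.6, then 54.7 and 49.9, and rose 3.71-fold by day 2 (log2 change 1.89, SE 0.18, adjusted p = 0.00116; 0.59 and still called with normexp correction). Ftx, the third transcript of that centre with a tested probe, read between 194.0 and 232.0 on all arrays (log2 change -0.05, adjusted p = 0.7). Firre was not above background on both arrays of any group.

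Structural and processing RNAs had small changes. Terc, the telomerase RNA, read 59.9 to 75.9 on the 6 arrays (day-2 change 0.10, SE 0.12), and Rmrp, the RNA of RNase MRP, 1286 to 1461 (0.02, SE 0.07); neither was called in any comparison of the groups; by the authors' values Rmrp was called higher on day 2 by 0.24. Rnu12, the U12 RNA of the minor spliceosome, was called lower by 0.19 on day 2 (adjusted p = 0.0469), but its change was 0.06 with quantile normalization and 0.03 in the value table, and it was not called without any 1 of the EpiSC or NPC2 arrays (-0.19, -0.20, -0.23 and -0.16). Such RNAs mostly lack the poly(A) tail that the labelling primes from. Snora47, a small nucleolar RNA, rose by 0.36 on day 2 (adjusted p = 0.0163), a call lost without EpiSC array A or B (0.37 and 0.34) or NPC2 array A (0.27). Of 6 small RNAs tested, 1 rose and 1 fell on day 2.

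All 12 snoRNA host genes, whose introns carry snoRNAs for ribosome synthesis, were above background and tested. On day 1, 5 fell and the other 7 were not called, and on day 2, 3 rose and 3 fell, with a median change of -0.06. Over all probes tested, 16% rose and 17.3% fell on day 1, and 23.9% and 30.7% on day 2. Snhg3 read 9973 and 10058, then 7297 and 8782, then 7460 and 7337, 1.42-fold lower on day 2 (adjusted p = 0.00503), Snhg12 was 1.36-fold lower (adjusted p = 0.00379) and Snhg16 1.27-fold lower (adjusted p = 0.00497). Snhg16 changed by -0.35 here, and by -0.13 and -0.12, without a call, with quantile normalization and in the value table. Snhg18 was 1.41-fold higher (adjusted p = 0.00599), from 222.0 and 234.0 to 346.0 and 326.0. Dancr and Snhg1 read 4922 and 4777, and 2681 and 2701, in EpiSC and 5046 and 5258, and 2554 and 2628, in NPC2 (adjusted p = 0.787 and 0.119); in the value table Dancr was called higher by 0.25 and with median scaling Snhg1 lower by 0.20. In the 13 promoter windows of these hosts the first 10 transcribed bases held a median of 7 pyrimidines, beside 5 in all windows; a pyrimidine start is known for hosts of ribosome-related RNAs.

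Among pseudogene transcripts Macroh2a3, described above, had a large rise, and Pou5f1-rs4 and 5730416F02Rik had large falls. By a -ps name or the reference's pseudogene class the list had 176 genes, 100 of them tested. On day 2, 14 rose and 26 fell, with a median change of -0.06. Over all probes tested, 23.9% rose and 30.7% fell, with a median of -0.054. Pou5f1-rs4, a near copy of the pluripotency gene Pou5f1, read 6416 and 6456, then 3385 and 4212, then 963.0 and 952.0 (7.03-fold lower, adjusted p = 6.42e-05). Pou5f1 changed by -2.66 and Pou5f1-rs4 by -2.81, and whether the probe tells the copy from Pou5f1 is uncertain. For 15 pseudogenes the parent gene by name was tested too, and the changes correlated with r = 0.84 across these pairs, which share sequence as well as arrays; without Pou5f1-rs4 the other 14 pairs gave r = 0.54, and Pisd is the parent in 3 of them. In 8 of the 9 pairs with both called the direction was the same. 5730416F02Rik fell from 656.0 and 678.0 through 423.0 and 463.0 to 149.0 and 155.0 (4.58-fold, adjusted p = 4.88e-05). Gm3219 went from 91.3 and 95.3 to 35.8 and 41.1 on day 1 (2.42-fold, adjusted p = 0.00082) and lies within 10 kb of the metabolic gene Glud1, which fell by 1.06. Gm3893 rose 3.01-fold on day 2, from 111.0 and 71.1 to 280.0 and 280.0 (adjusted p = 0.00371).

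Noncoding transcripts that overlap a protein-coding gene, or lie near one, were compared with that gene, and in 35 of the 50 overlapping pairs with both called the direction was the same. Each transcript was paired with the partner gene its symbol names or, without one, with its nearest protein-coding gene of the reference, where both were tested. On day 2 the log2 changes of 124 overlapping pairs had r = 0.55 and rho = 0.39, 103 pairs within 10 kb r = 0.47 and rho = 0.19, and 69 pairs farther apart r = 0.06 and rho = 0.11. These are descriptions: the 2 genes of a pair were read on the same arrays, and overlapping genes can share sequence. The other 15 overlapping pairs with both called moved in opposite directions; within 10 kb the counts of same and opposite direction were 21 and 11, and farther away 15 and 9. With pairs in which both genes were above background on all 6 arrays, so that no direction was fixed by the filter, the overlapping pairs gave 24 and 13 and r = 0.40. Of such pairs, those within 10 kb gave 16 and 11 and r = 0.37, and those farther apart 11 and 8 and r = 0.09. Over all 103 pairs within 10 kb the correlation rested on Crnde with Irx5 and Gm2694 with Cbln1: without these 2 pairs the other 101 gave r = 0.08. Gm11190 stood apart in the other way (chosen after its values were seen): it changed by -0.75 (adjusted p = 0.213) while Sez6, within 10 kb, rose by 5.26.

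**Figure D4:**
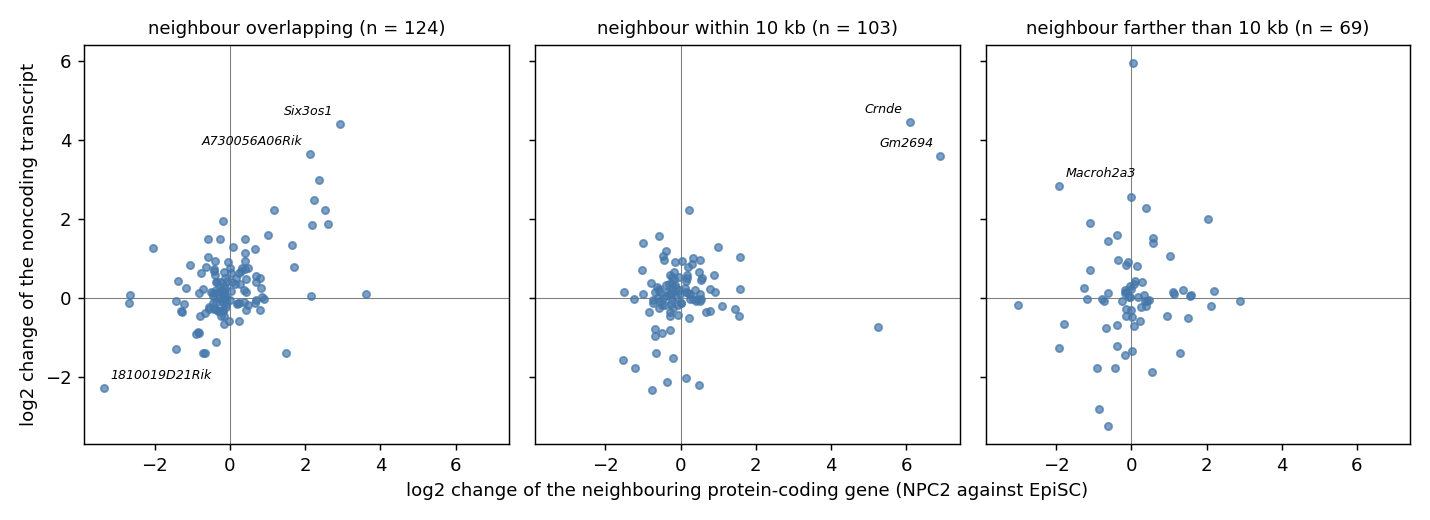
Log2 change in NPC2 against EpiSC of each tested noncoding transcript (vertical) against that of its partner by name or else its nearest protein-coding gene (horizontal), 1 point a pair, for 124 overlapping pairs, 103 within 10 kb and 69 farther apart. The overlapping pairs have r = 0.55, and 0.40 where both genes were above background on all arrays. Crnde and Gm2694 sit at the upper right of the middle panel, and the right panel shows no slope (r = 0.06).

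Transcripts named for a partner gene, most of them antisense or divergent, are a set of their own. Of 52 such genes 24 were tested, and 11 rose and 4 fell on day 2, beside 23.9% higher and 30.7% lower of all probes. For 21 the partner was tested as well: both were called in 7 pairs, with the same direction in 6 (for Six3os1 and Six3 fixed by the filter); the noncoding transcript alone was called in 7, the partner alone in 6 and neither in 1. Atad3aos was the pair with opposite calls. It rose from 20.1 and 19.4 through 31.5 and 37.9 to 46.7 and 38.9 (2.07-fold, adjusted p = 0.00165; a change of 1.05 that was 0.34 and still called with normexp correction), and Atad3a fell by 0.46 (adjusted p = 0.00284). Stk35os1 rose 1.88-fold, from 131.0 and 113.0 to 244.0 and 233.0 (adjusted p = 0.00164), beside a Stk35 change of -0.05 (adjusted p = 0.549). Whether a difference between partners in call is a difference in change was not tested.

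A group of transcripts peaked on day 1. The largest called rise in NPC1 against the mean of EpiSC and NPC2, among transcripts above background on all 6 arrays, was that of NR_015553, which read 85.1 and 98.0, then 210.0 and 190.0, then 56.5 and 42.2, without overlap (log2 change 1.62, SE 0.15, adjusted p = 0.00616). Gm11627 read 1361 and 1420, then 1792 and 2082, then 973.0 and 975.0 (0.77, adjusted p = 0.00404). Gm20556 was at 0.75 (adjusted p = 0.0473), but not called without EpiSC array A or B (0.82 and 0.68), NPC1 array A (0.51) or NPC2 array A or B (0.77 and 0.73). In the other direction, Bmp1, measured by a noncoding record of that protease gene, fell from 229.0 and 235.0 to 105.0 and 117.0 in NPC1 and read 116.0 and 132.0 in NPC2 (2.08-fold lower on day 1, adjusted p = 0.00208).

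Pluripotency-associated and Hox-cluster transcripts gave few values. Of 5 genes in the pluripotency and early lineage list 4 were not above background on any array (Platr4, Platr8, Platr26 and Evx1os). The tested one was called higher on day 1 (0.45) and was not called on day 2 against EpiSC (0.21). Hoxa11os, the tested one of 2 Hox-cluster transcripts, changed by -0.36 on day 2 against EpiSC (adjusted p = 0.0886). Between day 1 and day 2 Hoxa11os was called lower, with a change of -0.53.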

How the data were processed

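The deposited scanner files, 1 per sample, give the intensity of each spot per the file headers, from design 028005 (build mm9, 1 slide) with Agilent Feature Extraction 10.10.1.1, protocol GE1_1010_Sep10: processed signal, its error, median signal, local background and flags. The authors' deposited value table also holds intensity values, on an unstated scale. RNA was Cy3-labelled after amplification, per the labels' protocols. Control and outlier-flagged spots were left out and spots of a probe averaged. Log2 processed signals minus each array's 75th percentile were fitted with limma 3.58.1 (R 4.3.3) over all 6 arrays, for probes that both arrays of some group put well above background, with Benjamini-Hochberg adjustment over 33536 probes at 0.05. Where only the brighter of the compared groups was above background, a call could go in that direction only. Residual degrees of freedom were 3 and prior ones 1.70. The median SE was 0.086, and 6 arrays limit the precision. Duplicates correlated with r from 0.9963 to 0.9965. The same letters A and B did not deviate together (r between -0.0505 and 0.0318), so no pairing was used. The members and lists were chosen with earlier results of these data known. Named genes are, per comparison, the 8 largest called rises and falls above background in both groups without overlap, the 4 largest bounds, up to 5 called members of each list and a set of known noncoding RNAs, 13 of whose 33 symbols had no matching probe. A gene with several probes is given by its brightest tested probe. Names, classes, neighbours and sequences come from RefSeq tables (GRCm38.p6); no position of the mm9 design is printed. The procedure was tested on simulated data. Alternatives were other scalings, normexp background correction (offset 50), the value table, other filters, 1 probe a gene, a replicate block and leaving out each array.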

Additional observations from a re-analysis of the deposited data

How the results depend on the processing

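Counts of called noncoding probes under other processing were within 1.5 times those reported, with these exceptions. With no filter on dim probes, 91 in place of 147 were called on day 1 and 34 in place of 74 in NPC1 against the mean of the others, where 884 noncoding probes and all dim ones shared the adjustment. Leaving out 1 array of a compared group gave 81 to 120 on day 1, 184 to 192 on day 2 against EpiSC, 85 to 110 between the days and 30 to 45 for NPC1 against the others; the lone array left in a group was then assumed to vary like the rest. Leaving out an array of the group not compared gave 116, 241 and 126 in the first 3 comparisons. With the culture letter as a replicate block, the counts were 127, 236, 121 and 57 in place of 147, 236, 137 and 74; the labels do not say that the letters pair samples. Among the named transcripts, 3271 of 3616 recomputed changes kept direction and call, 270 lost the call, 72 gained one and 3 reversed: Morrbid in NPC1 against the others was -0.21 with normexp, and Rnu12 on day 2 was 0.06 with quantile normalization and 0.03 in the value table; the cause was not tested. Normexp correction moved 74 of 196 called changes by over 1.5 times, each toward 0, and 6 of the 74 lost the call. The value table moved the median of all probes by 0.12 on day 1 and 0.22 on day 2. With signal over 2 times its error as the rule, 61.7% to 65.5% of noncoding probes counted as detected. With the mean over the neighbour's probes the day-2 correlations were 0.55, 0.48 and 0.08. The correlations without named pairs were chosen after seeing the data. Signal near background limits Pantr1, Six3os1, Mir124-2hg, 8430431K14Rik and A730056A06Rik to bounds.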

Other observations

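In 30 cases 1 array of a duplicate was well above background for a noncoding probe and over 4-fold brighter than the other, which was not: 10 cases in EpiSC, 8 in NPC1 and 12 in NPC2. Tmem51os1 read 74.3 and 2.09 on the NPC2 arrays and Dlx4os 74.7 and 2.32; 4921511C20Rik read 2.38 and 77.5 in NPC1 and Gm10768 135.0 and 5.95 in EpiSC. None of these 4 enters a comparison of the report.

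Probes of 1 noncoding gene mostly moved together: over 55 genes with several tested probes the median range of the day-2 change was 0.19 on the log2 scale, and 4 genes had a range over 1. For 4933409K07Rik the probes were called in opposite directions, 721.0 and 696.0 in EpiSC to 584.0 and 576.0 in NPC2 for one and 152.0 and 135.0 to 480.0 and 479.0 for the other. The second probe of 2810410L24Rik rose by 2.07 while the first changed by 0.13 (adjusted p = 0.212).

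Hmga2-ps1 was the pseudogene called against its parent: it rose from 71.9 and 70.5 through 95.0 and 95.3 to 180.0 and 169.0, a change of 1.23 on day 2 (adjusted p = 0.0002), and Hmga2 changed by -0.27 (adjusted p = 0.02) on day 2 and by -1.0 on day 1.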
